A study of Homo sapiens with 118 samples.

Results

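Keratin genes were examined in HepaRG, a human line from a liver tumour that differentiates into both hepatocyte-like and biliary-like cells, after exposure to inhibitors of histone deacetylases. The genes were KRT7, KRT8, KRT17, KRT18, KRT19, KRT20, KRT23, KRT80, KRT81 and KRT86, and every row of the count table named for any of them was taken. Of these 10 genes, 8 had rows, and they had 10 rows among 22068. KRT7 and KRT19 each had 2 rows and the other 6 genes 1 row each. KRT81 and KRT86 were not analysed here. A row is called a feature below and carries the gene symbol and a probe number.

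Gene expression was measured in lysates by TempO-Seq with a whole transcriptome panel, an assay in which detector probes are ligated on their target RNA and then counted by sequencing. The 118 libraries came from differentiated HepaRG cells, for which the labels also give the cell type liver progenitor cells, treated over 72 hours, with fresh chemical each day. There were 8 chemicals, each given at 5 concentrations that rose from C1 to C5, and replicates 1, 2 and 3 came from 3 batches of HepaRG cells. Of the 40 groups, 38 had 3 libraries, while panobinostat C3 and trichostatin A C4 had 2 and lacked replicate 3.

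The concentrations were 0.041722 (C1), 0.125167 (C2), 0.3755 (C3), 0.5 (C4) and 0.86 µM (C5) for apicidin. They were 0.177222 (C1), 0.531667 (C2), 1.595 (C3), 2.5 (C4) and 3.9 µM (C5) for mocetinostat, and 0.001468 (C1), 0.004403 (C2), 0.01321 (C3), 0.03963 (C4) and 0.084 µM (C5) for panobinostat. Scriptaid was given at 4.94 (C1), 14.82 (C2), 44.46 (C3), 60 (C4) and 94.5 µM (C5), and tacedinaline at 1.143333 (C1), 3.43 (C2), 10.29 (C3), 30.87 (C4) and 44 µM (C5). Trichostatin A was given at 0.018811 (C1), 0.056433 (C2), 0.1693 (C3), 0.5079 (C4) and 1.5237 µM (C5), and vorinostat at 0.404778 (C1), 1.214333 (C2), 3.643 (C3), 10.929 (C4) and 23.5 µM (C5). Valproic acid is labelled with doses of 100.478, 301.433, 904.3, 2712.9 and 3038, a factor of 1000 above the µM values of its protocol text, so its unit is not settled here. Scriptaid, tacedinaline and vorinostat lay on plate E and the other 5 chemicals on plate H. All cells of all groups had received an inhibitor, because solvent controls were not used here, and C1 of the same chemical was the reference throughout. A change already complete at C1 could not be seen in this way. The comparisons of C2, C3, C4 and C5 within a chemical share their C1 libraries.

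Keratins form the intermediate filaments of epithelial cells. A filament needs a type II keratin paired with a type I keratin, and in hepatocytes that pair is KRT8 with KRT18. Cells of the bile ducts carry KRT7 and KRT19 in addition, which is why these are used as biliary markers in liver. KRT20 is best known from intestinal epithelium and urothelium, KRT17 from basal and activated epithelium, and KRT81 and KRT86 from hair. KRT7, KRT8, KRT18, KRT80, KRT81 and KRT86 are encoded on chromosome 12, and KRT17, KRT19, KRT20 and KRT23 on chromosome 17.

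The stretches before the annotated start were read from RefSeq (GRCh38.p14) for KRT8 and KRT20, the 2 of 8 measured genes found in the promoter table. They are shown because KRT8 had counts in every library while KRT20 had 0 counts in 71 of 118. Whether these starts are the ones used in HepaRG cells was not tested. Each line gives the 250 bases before the start, 5′ to 3′ on the minus strand, at chr12:52926470-52926719 for KRT8 and chr17:40885243-40885492 for KRT20, with any CCAAT box in capitals.
KRT8: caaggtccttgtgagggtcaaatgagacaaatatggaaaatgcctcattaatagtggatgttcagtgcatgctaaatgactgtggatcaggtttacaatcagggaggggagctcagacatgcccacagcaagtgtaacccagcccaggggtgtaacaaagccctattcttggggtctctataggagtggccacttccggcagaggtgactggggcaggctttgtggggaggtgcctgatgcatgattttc
KRT20: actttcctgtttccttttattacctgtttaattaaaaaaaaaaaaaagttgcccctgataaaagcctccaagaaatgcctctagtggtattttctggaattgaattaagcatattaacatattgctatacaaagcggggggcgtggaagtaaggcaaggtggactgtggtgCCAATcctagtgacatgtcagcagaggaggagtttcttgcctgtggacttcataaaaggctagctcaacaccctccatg
The letters CCAAT were found once, in KRT20 on the gene's strand at position -79 from the start. That motif was present, on either strand, in 32% of 35116 such stretches. Another 3 motifs were searched on both strands and were in neither stretch. The TATA box, searched as TATAAA, was in 10.7% of all such stretches. The GC box, searched as GGGCGG, was in 42.6%. The AP-1 site, searched as TGACTCA, was in 4.2%.

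Counts per library ranged from 1061359 to 5250260 in total, with a median of 3702007. Keratin features took 0.0145% to 0.0976% of these counts (median 0.0434%). Levels are given as CPM, counts divided by a library size that was adjusted with edgeR's TMM factors, and 3 counts, taken as the floor of a library, corresponded to 0.601 to 2.53 CPM. Replicate libraries correlated at a median of 0.953. After the data were seen, 3 libraries with a low mean correlation with the rest of their group were set apart, namely scriptaid C4 replicate 3 (0.820), mocetinostat C2 replicate 3 (0.852) and trichostatin A C1 replicate 3 (0.883). Scriptaid C4 replicates 1 and 2 were at 0.872 and 0.882, means that include replicate 3, so the last of the 3 was not lower than every library kept. Defining hepatocyte markers were present at C1, where the summed level of 14 features of 12 genes was 14035 to 72509 CPM. Of the biliary marker EPCAM, no library had more than 3 counts.

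A result, that is, a feature in a chemical, was called where the adjusted p of edgeR's quasi-likelihood test with Benjamini-Hochberg adjustment was under 0.05 and the fold change was at least 1.5. Of the 10 features, KRT8, KRT18, KRT80 and both KRT19 features passed the filter on low counts in all 8 chemicals. KRT17 passed in 7 (not in vorinostat), KRT20 in 3 (mocetinostat, scriptaid and valproic acid), KRT7_10561 in 1 (trichostatin A), and KRT7_3703 and KRT23 in 0. This gave 51 results for each comparison. Statements that the libraries of a group lay above, below or apart from those of another are descriptions. The share of all features separated in this way was not counted.

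At C5 versus C1, 11 of the 51 keratin results were called, all of them rising. These were KRT80 in 7 chemicals, KRT20 in the 3 chemicals in which it was tested, and KRT19_3690 in tacedinaline. The rising share was 21.6%, against 11.6% of all results pooled over the 8 chemicals, and 0 were called falling, against 13.4% of all results. In edgeR 4 of the 51 were lower at an unadjusted p under 0.05, and DESeq2 called 1 falling (KRT17 in panobinostat). KRT20 passed the filter through the groups in which it was high, so its 3 calls are not support for the higher share. The share of all features called at C5 in either direction was 28.8% in apicidin, 30.5% in mocetinostat, 16.2% in panobinostat, 29.8% in scriptaid, 38.8% in tacedinaline, 0.0154% in trichostatin A, 11.1% in valproic acid and 47.5% in vorinostat. In trichostatin A no keratin feature was called by edgeR or DESeq2, and 1 was lower at an unadjusted p under 0.05 in edgeR. The median log2 change of the keratin features tested lay between -0.33 (vorinostat) and 0.37 (tacedinaline), and that of all features between 0.00 and 0.08.

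**Figure D1:**
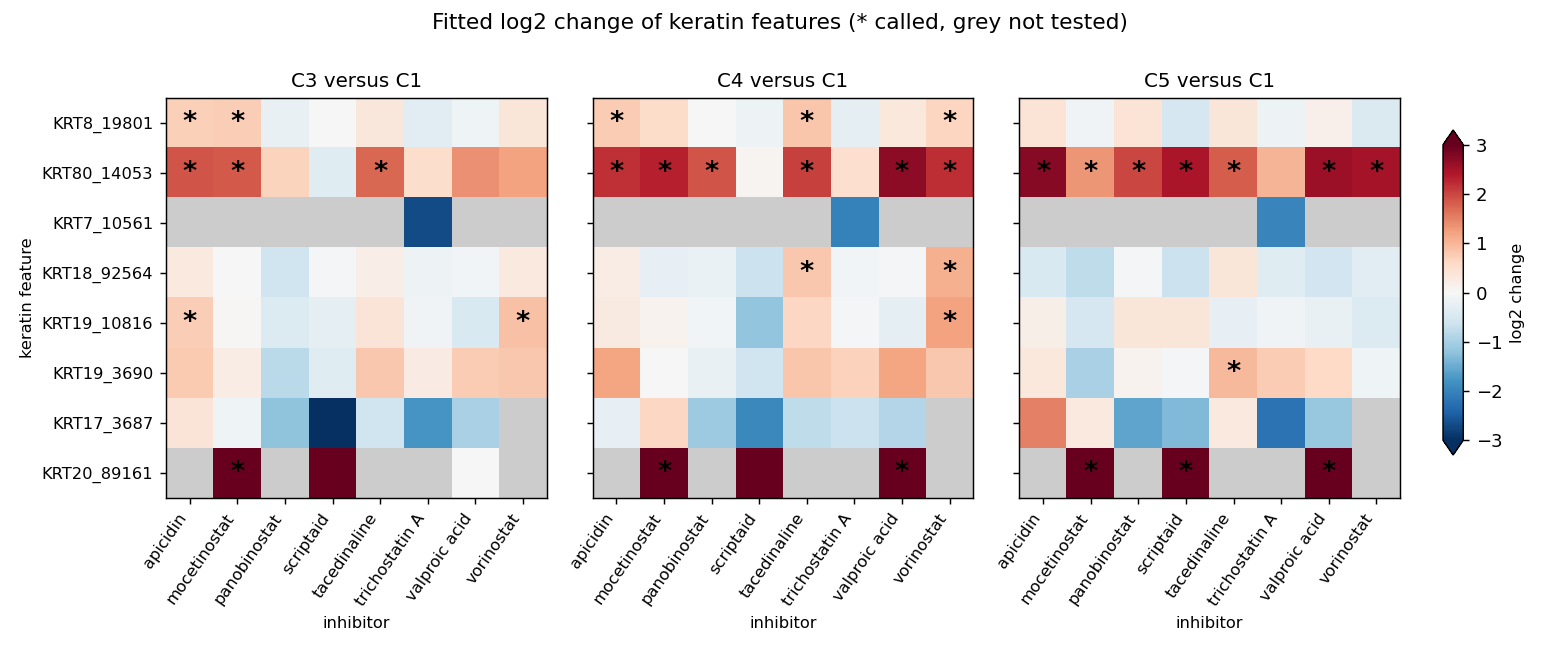
Fitted log2 change (colour, cut at 3 in either direction) of 8 keratin features by chemical at C3, C4 and C5 versus C1, with called results marked by an asterisk and untested ones in grey. The row of KRT80 holds 3, 6 and 7 calls at C3, C4 and C5, while the calls of KRT8 number 2, 3 and 0. The colours of KRT20 rest on groups at or near 0 counts.

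Among the type II keratins, KRT80, which is found in many epithelia, rose in 7 of the 8 chemicals. In apicidin its level was 7.96, 1.66 and 4.08 CPM in replicates 1, 2 and 3 at C1, and 36.3, 28.8 and 27.6 CPM at C5. In vorinostat it was 2.23, 6.29 and 4.97 CPM at C1 and 23.7, 23.5 and 27.7 CPM at C5. In valproic acid it was 1.20, 1.53 and 2.91 CPM at C1 and 10.5, 10.2 and 13.0 CPM at C5. In each of these chemicals every C5 library lay above every C1 library, by a wide gap.

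In tacedinaline the C1 libraries gave 12.6, 3.85 and 8.78 CPM of KRT80 and the C5 libraries 29.2, 22.6 and 26.9 CPM. In panobinostat they gave 3.03, 4.06 and 4.09 CPM at C1 and 10.4, 9.70 and 25.8 CPM at C5. In mocetinostat they gave 9.49, 6.79 and 7.81 CPM at C1, 43.0, 31.3 and 41.2 CPM at C4, and 24.7, 18.0 and 14.5 CPM at C5. The groups did not overlap here either, although in mocetinostat the libraries at C5 were all lower than those at C4.

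The fitted log2 changes of KRT80 at C5 were 2.74 (SE 0.42) in apicidin, 2.57 (SE 0.58) in valproic acid, 2.49 (SE 0.47) in vorinostat, 2.01 (SE 0.45) in panobinostat, 1.82 (SE 0.36) in tacedinaline and 1.33 (SE 0.33) in mocetinostat. The adjusted p of edgeR's quasi-likelihood test was at most 0.00554 in these 6 chemicals. KRT80 was higher at C5 in all 3 replicates of each of them. The call was lost without replicate 2 in mocetinostat (adjusted p 0.112), without replicate 3 in panobinostat (adjusted p 0.116) and without replicate 1 in valproic acid (adjusted p 0.144), all in edgeR. In apicidin, tacedinaline and vorinostat it held without each replicate in turn.

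In scriptaid KRT80 stood at 4.33, 5.04 and 5.52 CPM at C1 and at 10.5, 7.66 and 60.1 CPM at C5. Replicate 3 was far above the others at C5, and the groups did not overlap. The log2 change was 2.45 (SE 0.80), with an adjusted p of 0.0270 in edgeR. Without replicate 3 the log2 change was 0.99 with an adjusted p of 0.319, and the call was also lost without replicate 1 (adjusted p 0.0886) or replicate 2 (adjusted p 0.0754), so it depended on each library.

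In trichostatin A KRT80 stood at 2.67, 0.924 and 6.27 CPM at C1 and at 4.80, 5.78 and 9.44 CPM at C5. These groups overlapped, and the log2 change of 1.02 (SE 0.62) had an adjusted p of 0.627 in edgeR. The highest C1 library was replicate 3, which stood apart from its group, and with the 3 such libraries left out the log2 change was 1.83 and the adjusted p 0.275. Whether the change of KRT80 differed among the chemicals was tested in one model over 118 libraries, and the adjusted p in edgeR was 0.350 for 8 chemicals and 0.584 for the 7 without trichostatin A. A difference between trichostatin A and the other chemicals was therefore not shown for this gene.

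**Figure D2:**
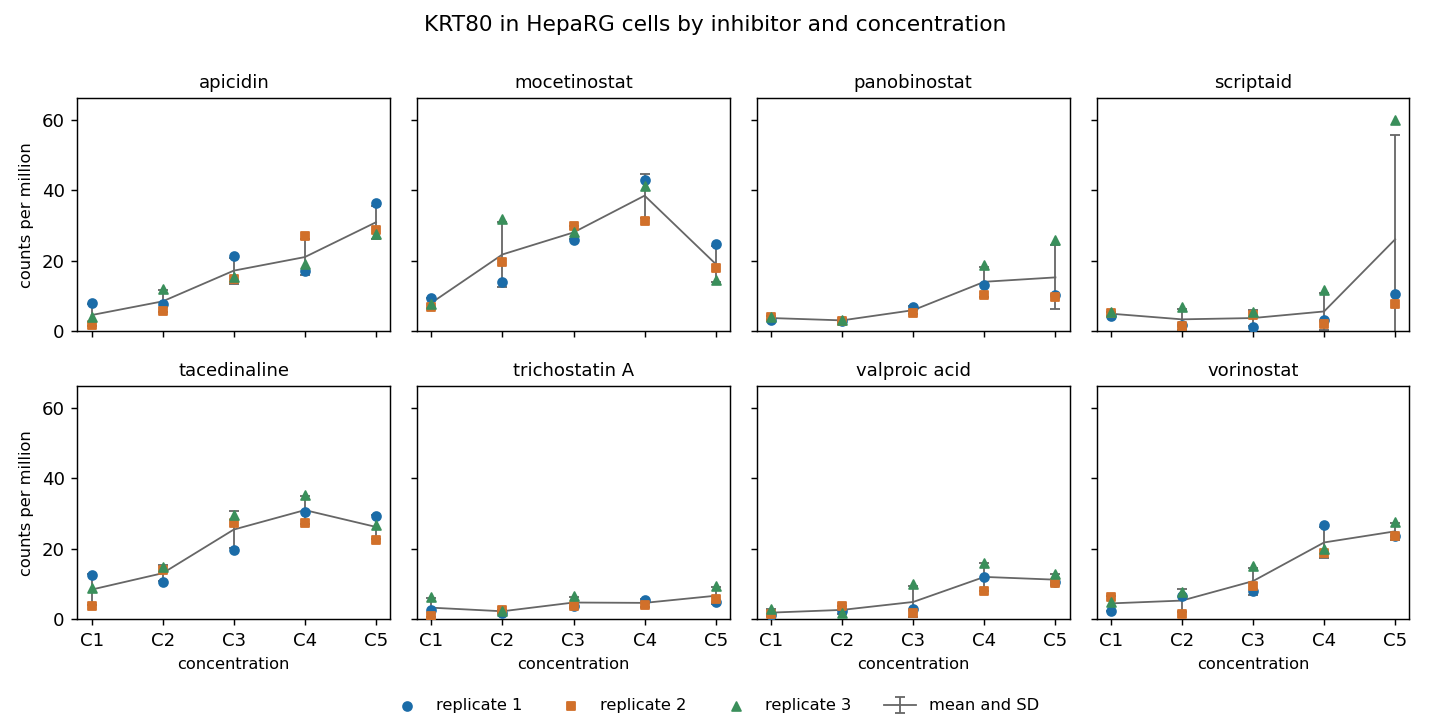
KRT80 level in CPM against concentration, C1 to C5, in a panel per chemical, with a point for each library by replicate and a line for the mean with its SD (drawn down to 0 where it would fall below). The C5 libraries lay above the C1 libraries in 7 chemicals and overlapped them in trichostatin A, and the SD of 29.5 CPM in scriptaid at C5 came from a replicate at 60.1 CPM.

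KRT80 was called below C5 as well. At C3 it rose in apicidin (log2 change 1.89), mocetinostat (1.83) and tacedinaline (1.72), and at C4 in 6 chemicals by 1.88 (panobinostat) to 2.67 (valproic acid). Each C3 call was lost without 1 replicate, which was replicate 3 in apicidin (adjusted p 0.0777) and replicate 2 in mocetinostat (0.118) and tacedinaline (0.0652), and of the C4 calls those in panobinostat (without replicate 1 or 3, adjusted p 0.376 and 0.241) and valproic acid (without replicate 1, adjusted p 0.129) were lost in edgeR. At C2 it was called in none, with log2 changes from -0.58 to 1.49 and adjusted p of at least 0.0742 in edgeR. The trend over the 5 concentrations, expressed as the fitted change from C1 to C5, was called in 6 chemicals with log2 changes of 1.68 to 2.82. In mocetinostat (1.68) the trend call was lost without replicate 1 (adjusted p 0.0856) or replicate 2 (0.0594) in edgeR. The trend was not called in scriptaid (log2 change 2.09, adjusted p 0.0959) or trichostatin A (log2 change 1.21, adjusted p 0.514) by edgeR's test. The highest group mean of KRT80 was at C5 in apicidin, panobinostat, scriptaid, trichostatin A and vorinostat, and at C4 in mocetinostat, tacedinaline and valproic acid.

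KRT8, the type II keratin of hepatocytes, was called at intermediate concentrations and not at C5. In apicidin its level was 409, 427 and 447 CPM at C1, 673, 719 and 706 CPM at C3, 687, 753 and 701 CPM at C4, and 528, 580 and 571 CPM at C5. The C5 libraries lay between those at C1 and those at C4 without overlap. The log2 change was 0.71 (SE 0.12) at C3, 0.75 (SE 0.12) at C4 and 0.40 (SE 0.12) at C5, the last with an adjusted p of 0.0159 in edgeR but a fold change of 1.32.

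In mocetinostat KRT8 was at 449, 457 and 488 CPM at C1, 798, 720 and 777 CPM at C3, 700, 604 and 645 CPM at C4, and 435, 397 and 393 CPM at C5. All libraries at C3 and C4 were above those at C1, and all at C5 were below them. The log2 change was 0.75 (SE 0.20, adjusted p 0.0236 in edgeR) at C3 and -0.10 (SE 0.20, adjusted p 0.741) at C5. At C2 the libraries spread from 525 to 921 CPM, and the lowest of them was the library that stood apart. The call at C3 was lost whichever replicate was left out (adjusted p 0.0615 to 0.271 in edgeR) and with no filter on low counts (0.0515).

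In tacedinaline KRT8 was at 345, 297 and 350 CPM at C1, 573, 562 and 558 CPM at C4, and 434, 356 and 426 CPM at C5. In vorinostat it was at 248, 280 and 272 CPM at C1, 388, 386 and 436 CPM at C4, and 187, 160 and 200 CPM at C5. In both chemicals every C4 library was above every C1 library. At C5 the libraries lay above those of C1 in tacedinaline and below them in vorinostat, without overlap in either.

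The log2 change at C4 versus C1 was 0.83 (SE 0.13, adjusted p 2.05e-06 in edgeR) in tacedinaline and 0.64 (SE 0.14, adjusted p 0.000312) in vorinostat, the latter 0.58, just under the fold required, without replicate 1. At C5 it was 0.37 (SE 0.13, adjusted p 0.0203 in edgeR, fold change 1.29) in tacedinaline and -0.44 (SE 0.14, adjusted p 0.00787, fold change 0.735) in vorinostat, both within the fold change that a call required. The comparison of C5 with C4 was added after this course was seen. In vorinostat KRT8 fell by 1.08 on the log2 scale from C4 to C5 (SE 0.14, adjusted p 6.42e-07 in edgeR), in 3 of 3 replicates. In apicidin, mocetinostat and tacedinaline the change from C4 to C5 was -0.35 (adjusted p 0.302), -0.65 (adjusted p 0.429) and -0.46 (adjusted p 0.0458) by the same edgeR test, none of them called.

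**Figure D3:**
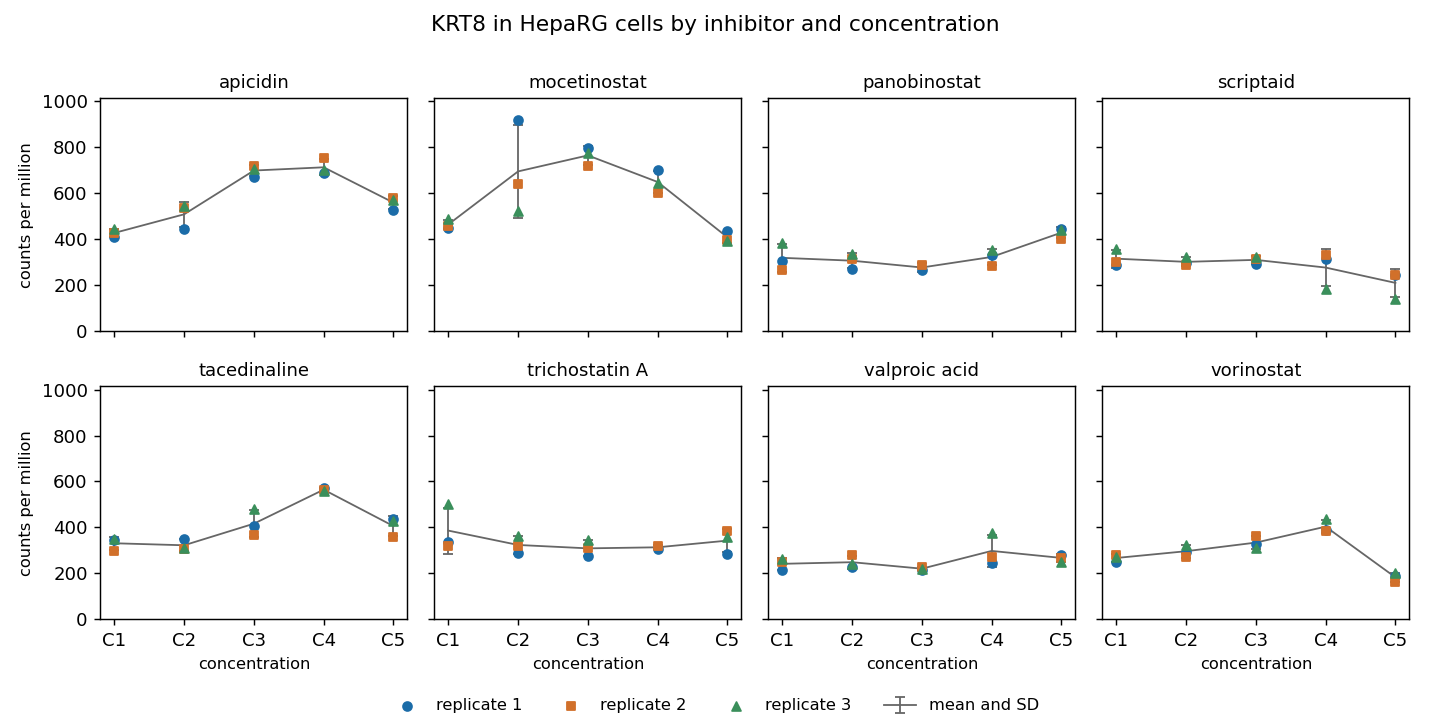
KRT8 level in CPM against concentration in a panel per chemical, with a point for each library by replicate and the mean with its SD. Group means peaked at C3 or C4 in apicidin, mocetinostat, tacedinaline and vorinostat, at 713, 765, 564 and 403 CPM, and were lower again at C5.

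In the other 4 chemicals KRT8 was called at no concentration. In panobinostat it was at 306, 267 and 385 CPM at C1 and 446, 401 and 441 CPM at C5, and in scriptaid at 287, 300 and 359 CPM at C1 and 246, 242 and 142 CPM at C5. In trichostatin A it was at 336, 321 and 501 CPM at C1 and 285, 383 and 360 CPM at C5, and in valproic acid at 213, 249 and 263 CPM at C1 and 282, 268 and 251 CPM at C5. The groups were apart in panobinostat (higher at C5) and scriptaid (lower at C5) and overlapped in trichostatin A and valproic acid. The trend of KRT8 over concentrations was called in apicidin (log2 change 0.65, adjusted p 0.00191 in edgeR) and tacedinaline (log2 change 0.70, adjusted p 0.000743).

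The C5 versus C1 change of KRT8 differed among the chemicals, with an adjusted p of 7.89e-05 in edgeR's F test over 8 chemicals and 7.50e-05 over the 7 without trichostatin A. Such a difference was called for 30.3% and 21.4% of all features. Without replicate 2 the adjusted p was 0.108 and 0.155, and without replicate 1 or 3 it stayed under 0.05, at 0.0157 or less. Sorted by group mean at C5, KRT8 was lowest in vorinostat (182 CPM ± 20.6, SD, n = 3), followed by scriptaid, valproic acid, trichostatin A, tacedinaline, mocetinostat, panobinostat and apicidin (560 CPM ± 27.6, SD, n = 3). Neighbours in this order overlapped between vorinostat and scriptaid and from trichostatin A through panobinostat. They did not overlap between scriptaid and valproic acid, between valproic acid and trichostatin A, and between panobinostat and apicidin. At C1, too, the means ranged from 241 CPM (valproic acid) to 465 CPM (mocetinostat), and the concentrations were not matched between chemicals.

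KRT7, the type II keratin of bile duct cells, was near the floor with both probes. KRT7_3703 had 0 counts in 77 of 118 libraries and at most 16. KRT7_10561 had a median of 4 counts and a highest value of 84 counts, which was in trichostatin A C1 replicate 3, the library that stood apart, while replicates 1 and 2 of that group had 10 and 3. Its log2 change in trichostatin A at C5 was -1.98 (adjusted p 0.523 in edgeR), and with the 3 libraries that stood apart left out it was 0.53. No direction was therefore given for KRT7.

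KRT18, the type I partner of KRT8, was called at C4 in 2 of the chemicals in which KRT8 was called. In tacedinaline it was at 33.7, 32.0 and 47.8 CPM at C1, 59.1, 69.0 and 66.8 CPM at C4, and 41.6, 36.6 and 62.3 CPM at C5. In vorinostat it was at 30.2, 21.4 and 25.5 CPM at C1, 56.3, 48.0 and 50.7 CPM at C4, and 10.6, 16.5 and 28.3 CPM at C5. The C4 libraries stood above the C1 libraries without overlap in both chemicals, and the C5 libraries overlapped those of C1.

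The log2 change of KRT18 at C4 was 0.82 (SE 0.25, adjusted p 0.00882 in edgeR) in tacedinaline and 1.06 (SE 0.31, adjusted p 0.00706) in vorinostat. In tacedinaline the call was lost without replicate 1 (adjusted p 0.0518) or replicate 2 (0.125), and in vorinostat without replicate 2 (0.0596), in edgeR. From C4 to C5 it fell by 1.39 on the log2 scale in vorinostat (SE 0.33, adjusted p 0.00261 in edgeR), although without replicate 1 the adjusted p was 0.0673. At C5 versus C1 it was called in no chemical, with log2 changes from -0.75 (mocetinostat, adjusted p 0.114 in edgeR) to 0.36 (tacedinaline, adjusted p 0.261). All C5 libraries lay below all C1 libraries in apicidin, mocetinostat and valproic acid, and in no chemical did all lie above. With so few libraries per group this is a description, and no fall of KRT18 is read from it. Its trend was called in tacedinaline alone (log2 change 0.74, adjusted p 0.0146 in edgeR), and it was lost whichever replicate was left out (adjusted p 0.0529 to 0.0673).

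KRT8 and KRT18 can be set against each other within a library, where scaling cancels. The mean log2 ratio of KRT8 to KRT18 moved by 0.00 (tacedinaline) to 0.83 (apicidin) from C1 to C5. In apicidin, mocetinostat and valproic acid the ratio in every C5 library was above that in every C1 library, with mean shifts of 0.83, 0.76 and 0.73, and in the other 5 chemicals the groups overlapped. No test was run on this ratio, and it compares changes of the 2 probes, not their amounts.

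KRT19, the type I keratin of bile duct cells, was read by a pair of probes that did not move alike. KRT19_10816 in vorinostat was at 25.7, 23.9 and 32.9 CPM at C1, 67.3, 52.3 and 66.1 CPM at C4, and 26.9, 12.7 and 19.5 CPM at C5. The libraries at C4 were all above those at C1 and C5, and overlapped those at C3 (50.3, 59.8 and 36.9 CPM). The log2 change was 0.87 at C3 (adjusted p 0.0402 in edgeR) and 1.21 (SE 0.26, adjusted p 0.000472) at C4, of which the call at C3 was lost without replicate 1 (adjusted p 0.286) or replicate 2 (0.540), and from C4 to C5 it fell by 1.62 on the log2 scale (SE 0.29, adjusted p 9.40e-05).

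In apicidin KRT19_10816 was at 38.8, 36.2 and 43.0 CPM at C1 and 62.5, 73.2 and 61.2 CPM at C3, without overlap and with a log2 change of 0.74 (SE 0.20, adjusted p 0.0143 in edgeR). Without replicate 2 or replicate 3 the adjusted p was 0.190 and 0.0754. In scriptaid it was higher at C5 than at C4 by 1.54 on the log2 scale (adjusted p 0.0230 in edgeR). Its C4 libraries there gave 22.9, 17.4 and 1.46 CPM, the last being the library that stood apart, and its C5 libraries 53.7, 40.3 and 30.5 CPM. The call was lost without replicate 1 or replicate 2.

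KRT19_3690 was called in tacedinaline alone. It was at 6.73, 9.17 and 22.0 CPM at C1 and 21.3, 24.6 and 28.9 CPM at C5. Replicate 3 at C1 lay within the range of the C5 libraries. The log2 change at C5 was 0.96 (SE 0.34, adjusted p 0.0208 in edgeR), and without replicate 1 or replicate 2 the adjusted p was 0.109 and 0.186. In the same libraries KRT19_10816 was at 52.2, 38.8 and 58.1 CPM at C1 and 16.8, 47.2 and 52.9 CPM at C5. The mean log2 ratio of the 2 KRT19 probes moved by -1.62 in tacedinaline, so no direction was given for KRT19 as a gene at C5.

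KRT20 was at the floor in every group at C1 and had counts above it at C4 or C5 in 6 chemicals. It had 0 counts in 71 of 118 libraries, and 25 of the 40 groups had no library above 3 counts. In mocetinostat the libraries had 0, 0 and 0 counts at C1 and at C2, 1, 13 and 3 at C3, 33, 21 and 28 at C4, and 31, 17 and 28 at C5. In valproic acid they had 0, 0 and 0 counts at C1, C2 and C3, 11, 12 and 2 at C4, and 26, 5 and 10 at C5. In scriptaid they had 1, 0 and 0 counts at C1, 0, 8 and 0 at C2, 0, 10 and 6 at C3, 4, 13 and 0 at C4, and 25, 33 and 7 at C5. Some libraries there were thus above the floor from C2 on, and all of them at C5. All C5 libraries exceeded all C1 libraries in these 3 chemicals.

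Against a floor of 3 counts in each C1 library, KRT20 was at least 9.15-fold higher at C5 and at least 9.47-fold higher at C4 in mocetinostat. In valproic acid it was at least 4.23-fold higher at C5. In scriptaid the ratio of C5 to C1, which rests on 1 count at C1, was 88.0 with a 95% counting interval of 15.3 to 3530. The edgeR adjusted p at C5 was 0.000749 in mocetinostat, 0.00604 in scriptaid and 0.0141 in valproic acid. KRT20 passed the filter in these chemicals through the groups in which it was high, so the direction of these tests was fixed by the filter. The call in valproic acid was lost whichever replicate was left out (adjusted p 0.0544 to 0.238). In scriptaid KRT20 no longer passed the filter without replicate 2, so its call was lost there, and its trend was also lost without replicate 1 (adjusted p 0.0764 in edgeR). At C3 in mocetinostat KRT20 was called (adjusted p 0.0256 in edgeR), but with the HepaRG batch as a block the adjusted p was 0.0551. That call, and the one at C4 in valproic acid (adjusted p 0.0279 in edgeR), were lost whichever replicate was left out.

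In apicidin KRT20 had 0, 0 and 0 counts at C1 and 13, 7 and 7 counts at C5, at least 3.18-fold higher. In tacedinaline it had 0, 0 and 0 counts at C1, 25, 17 and 10 counts at C4, at least 4.05-fold higher, and 4, 1 and 7 counts at C5. In vorinostat counts were 0, 0 and 0 at C1, 1, 4 and 7 at C4 and 0, 0 and 0 at C5. These chemicals had counts above the floor at some concentration but did not pass the filter, so no test was made. In panobinostat and trichostatin A no library had more than 3 counts.

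**Figure D4:**
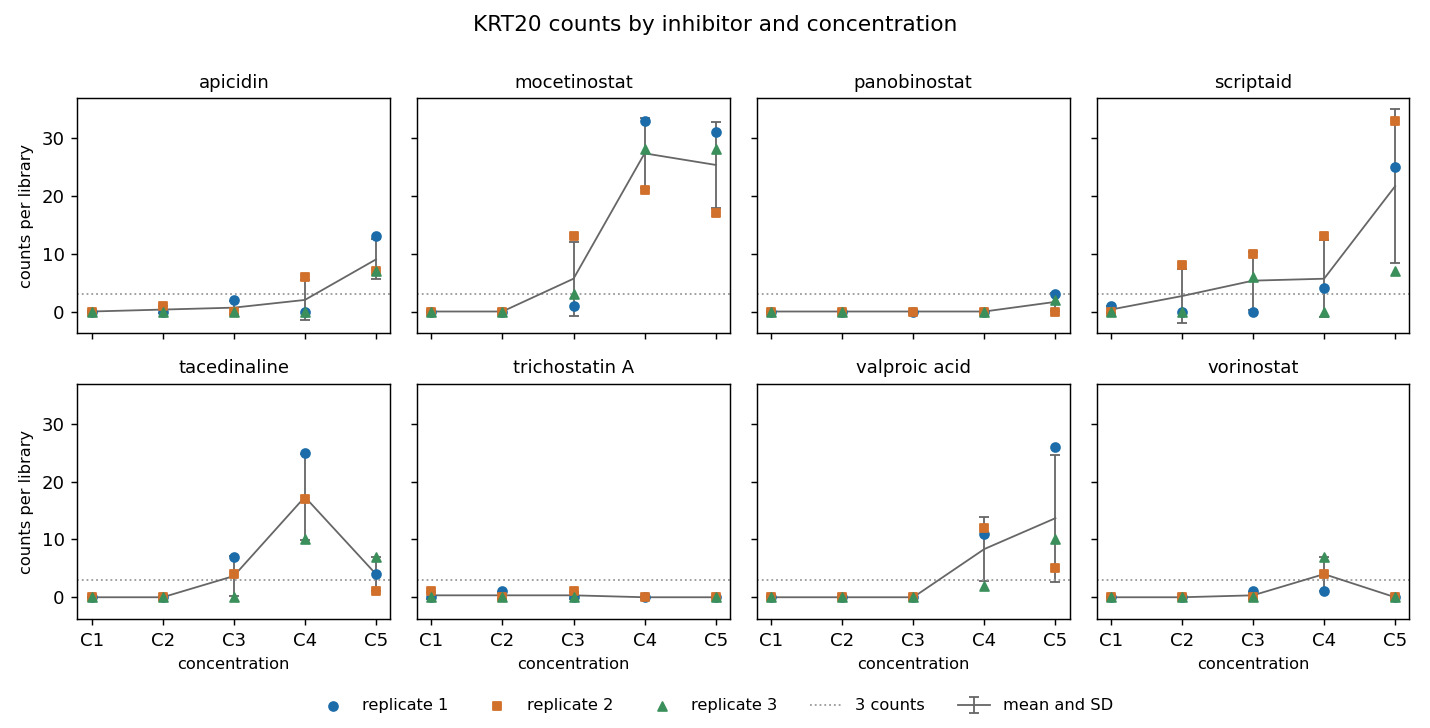
KRT20 counts per library (not scaled for depth) against concentration in a panel per chemical, with a point for each library by replicate, the mean with its SD and a dotted line at 3 counts. Counts were above the line at C4 or C5 in 6 chemicals, were back at 0 at C5 in vorinostat, and stayed at or under it in panobinostat and trichostatin A.

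KRT17, the type I keratin of basal and activated epithelium, had a median of 13.5 counts. In panobinostat it was at 13.0, 9.61 and 5.03 CPM at C1, 5.59, 2.80 and 4.81 CPM at C4, and 3.36, 1.94 and 4.11 CPM at C5. All C5 libraries were below all C1 libraries. The trend was called falling, with a log2 change of -1.44 (SE 0.45, adjusted p 0.0252 in edgeR), and without replicate 1 or replicate 2 the adjusted p was 0.210 and 0.211. At C5 versus C1 the log2 change was -1.58 (adjusted p 0.0525 in edgeR), not called, whereas DESeq2 gave an adjusted p of 0.0321.

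In the other chemicals KRT17 was not called by edgeR with the filter on low counts. With no filter it was called falling in trichostatin A at C5 (log2 change -2.22, adjusted p 0.0410). Its log2 change at C5 ran from -2.22 in trichostatin A to 1.52 in apicidin, and the C5 versus C1 change differed among 8 chemicals with an adjusted p of 0.0399 in edgeR. Such a difference was called for 30.3% of all features. In trichostatin A the C1 libraries had 3.11, 8.01 and 22.7 CPM, the highest being the library that stood apart, and with the 3 such libraries left out the log2 change there was -1.20 and the adjusted p of the difference among 8 chemicals 0.0945. Over the 7 chemicals without trichostatin A the adjusted p of the difference was 0.135. With each replicate left out in turn it was 0.0539 to 0.193 over 8 chemicals, so the call was lost whichever replicate was left out.

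KRT23, a type I keratin, was at the floor. It had 0 counts in 101 of 118 libraries, more than 3 counts in 6 and at most 10, and 34 of the 40 groups had no library above the floor. It was tested in no chemical, and a change was not detectable at this depth.

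Counted over all keratin features, 0 of 51 results were called at C2, where 0.0865% of all results were. In edgeR 4 were higher and 2 lower at an unadjusted p under 0.05, and DESeq2 called 1. At C3 there were 8 calls (15.7%, against 5.98% of all results), and at C4 14 calls (27.5%, against 16%). The trend was called rising in 13 results (25.5%, against 12.7%) and falling in 1 (1.96%, against 12.7%). KRT20, which passed the filter through the groups in which it was high, gave 1 of the calls at C3, 2 at C4 and 3 by trend, and these are not support for the higher shares. From C4 to C5, 2 results were called rising (3.92%, against 1.88%) and 3 falling (5.88%, against 3.84%), the former both in scriptaid and the latter all in vorinostat. The shares of all results are pooled over the 8 chemicals, and those within scriptaid and vorinostat alone are not given here. In vorinostat the libraries had 1061359 to 1879287 counts in total at C5 and 1328649 to 3043958 at C4. The rising ones were KRT19_10816 and KRT80. The KRT80 call was lost whichever replicate was left out (adjusted p 0.0961 to 0.145 in edgeR) and with DESeq2 size factors in edgeR (0.0525). Of the 22 calls at C3 and C4, 9 belonged to KRT80.

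Genes of the same structures were counted from lists at C5, with the median log2 change over their tested features in each chemical. Over all features that median lay between -0.0018 (panobinostat) and 0.084 (mocetinostat). Of all results pooled over the 8 chemicals, 11.6% were called rising and 13.4% falling. The other keratins of the table gave 47 results, 4 of them called rising and 14 falling. KRT5 and KRT6A, keratins of basal and activated epithelium, fell in 6 and 5 chemicals, by 1.45 to 4.34 and 1.87 to 3.98 on the log2 scale. At C5 KRT5 had 0 to 2 counts per library in scriptaid, 2 to 6 in mocetinostat and 2 to 5 in tacedinaline. It had 3 to 16 in apicidin, 1 to 12 in valproic acid and 0 to 12 in vorinostat. KRT6A had 2 to 11 counts at C5 in scriptaid and 1 to 9 in vorinostat. These counts reach the floor, so the sizes of change in these chemicals are uncertain. There the features passed the filter through groups in which they were higher, so their falls are not support for the number of falling calls. KRT6A has near-identical paralogs, so its counts are uncertain. KRT12, a corneal keratin, gave 2 of the 4 rising calls, in the 2 chemicals in which it passed the filter through the groups where it was high, so that its rise there was fixed by the filter. It went from at most 1 count per library at C1 to 67 to 82 counts at C5 in mocetinostat and 18 to 37 counts in tacedinaline. It also had 8 to 9 counts at C5 in scriptaid, 5 to 16 in panobinostat and 3 to 16 in vorinostat, without a test. KRT14 rose in 1 chemical. The median log2 change of these keratins lay between -3.98 (scriptaid, 5 features) and 0.88 (tacedinaline, 7 features).

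Desmosomes and cytolinkers, which anchor keratin filaments, gave 116 results, 6 called rising and 15 falling, and a median log2 change between -0.31 and 0.04. Their falling share was near the 13.4% of all results, and their rising share was below the 11.6% of all results. The desmosomal cadherin DSC2 fell in 6 chemicals by 1.09 to 2.38 on the log2 scale, and 1 feature of the linker DST fell in 3. Epiplakin (EPPK1) rose in 3 chemicals by 1.93 to 2.61, and the desmosomal membrane protein PERP in 1 by 0.82. Other intermediate filament genes gave 62 results, 5 called rising and 11 falling, with medians between -0.27 and 0.22. Here the rising share was below that of all results, and the falling share somewhat above it. The nuclear lamin LMNB1 fell in 6 chemicals by 1.26 to 3.46 and LMNA in 2 by 0.60 to 1.09. The neurofilament NEFL gave 4 of the 5 rising calls, in the 4 chemicals in which it passed the filter through the groups where it was high, which fixed its direction. The other was 1 feature of nestin (NES).

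Cell type markers moved in the same libraries. Of all results pooled over the 8 chemicals at C5, 11.6% were called rising and 13.4% falling. Of 112 results for hepatocyte markers at C5, 93 were called falling, with a median log2 change of -1.34 (panobinostat) to -4.53 (tacedinaline) in 7 chemicals and 0.02 in trichostatin A. Their summed level in tacedinaline was 43385 to 58245 CPM at C1 and 3104 to 4435 CPM at C5. Biliary markers gave 10 rising and 2 falling calls among 30 results, and their summed level was low, at 26.9 to 55.8 CPM at C1 and 43.5 to 171 CPM at C5. Of their 9 features, 2 (vorinostat) to 5 (mocetinostat) passed the filter in a chemical. Features of low level can pass through the groups where they are high, so the rising share is not read as a biliary shift. Stromal markers gave 8 rising and 27 falling calls among 73 results, with a summed level of 180 to 367 CPM at C1 and 110 to 233 CPM at C5, and THY1 was at the floor. The part of these shifts in the keratin results was not tested. In such bulk lysates, fewer cells of a type and less RNA per cell cannot be told apart.

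Across the 118 libraries, and as a description only, since points share chemicals, batches and plates, KRT8 correlated with KRT18 at r = 0.64, with KRT19_10816 at 0.63, with KRT19_3690 at 0.54, with KRT80 at 0.48 and with KRT17 at 0.22. The 2 KRT19 probes correlated at 0.66. Among 12960 features with a mean count of at least 5, the features of other genes with the profile of log2 CPM most like that of KRT8 were TNC (tenascin C, Pearson r = 0.70), ANXA1 (annexin A1, 0.67) and S100A8 (0.67). For KRT80, added after its values were seen, they were SUN3 (0.85), USB1 (0.81) and HBEGF (0.81). No such profile was computed for KRT23.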

How the data were processed

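The deposited table held unnormalised read counts, as the authors made them, for every detector probe (rows) in every library (columns). According to the submitters' processing notes the tools were bcl2fastq 2.20.422, fastp 0.23.2, STAR 2.7.10b and DESeq2 1.38.0, and the genome build is not given in the sources used here. Of 22069 rows, 22068 were complete and 1 was left out. They name 19470 symbols, of which 18807 match RefSeq (GRCh38.p14). Probe sequences were not used here, so whether the probes of KRT8, KRT18, KRT17 and KRT19 also read pseudogenes, of which RefSeq lists 52, 68, 8 and 5 by symbol, is not known, and those levels are uncertain to that extent.

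Each chemical was fitted on the whole table in R 4.3.3 with edgeR 4.0.16 (filterByExpr, TMM scaling, quasi-likelihood F tests, Benjamini-Hochberg adjustment over all features). C2 to C5 were compared with C1, and the slope on log2 concentration was expressed as the change from C1 to C5. A further edgeR model over 118 libraries tested whether the C5 change was equal in all chemicals. Results were called at an adjusted p below 0.05 with a change of 1.5-fold or more in either direction. Each SE was obtained from the log2 change and the root of its F statistic. The log2 CPM used a prior count of 2. The fits were tested on simulated data. Intervals and floors (3 counts per library) hold for counting error alone, because no molecular identifiers separate PCR copies.

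Alternatives were the HepaRG batch as a block, DESeq2 1.42.0, its size factors in edgeR, no filter on low counts, probes of a gene summed, and each replicate left out. Leaving out 3 libraries that stood apart, and the comparison of C5 with C4, were added after seeing the data. Replicate numbers pair the samples, because the labels say that they mark HepaRG batches; the deviations of libraries of the same batch within a chemical correlated at a median of 0.0311 (232 pairs), against -0.0128 for different batches (464 pairs). Correlations of gene profiles used log2 CPM of features with a mean count of at least 5.

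All features of the member genes are named. Of other genes, the 2 features called rising and the 2 called falling at C5 in the most chemicals are named from each list (other keratins, desmosome and cytolinker partners, other intermediate filament genes), and the 3 features most correlated with KRT8. Hepatocyte, biliary and stromal markers are given by counts and sums. The members and lists were chosen with earlier results of these data known.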

Additional observations from a re-analysis of the deposited data

Results flagged for a closer look

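The change of KRT8 from C1 to C5 differed among the 8 chemicals in a test of the difference itself (edgeR's quasi-likelihood F test, adjusted p 7.89e-05) and among the 7 chemicals without trichostatin A (adjusted p 7.50e-05). Such a difference was called for 30.3% and 21.4% of all features. The log2 changes of KRT8 ran from -0.52 in scriptaid to 0.41 in panobinostat. Without replicate 2 the adjusted p was 0.108 and 0.155.

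The change of KRT17 differed among the 8 chemicals by the same edgeR test (adjusted p 0.0399), with log2 changes from -2.22 in trichostatin A to 1.52 in apicidin, and not among the 7 without trichostatin A (adjusted p 0.135). With the 3 libraries that stood apart left out, one of them at C1 of trichostatin A, the log2 change in trichostatin A was -1.20 and the adjusted p over 8 chemicals 0.0945. In the main fit a difference was called for 30.3% of all features over 8 chemicals and 21.4% over the 7.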

How the results depend on the processing

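Of the 30 results called at C5 versus C1, by trend or at C5 versus C4, all 30 were also called with the HepaRG batch as a replicate block, with DESeq2, and with the 3 libraries that stood apart left out; 29 were called with DESeq2 size factors or with no filter on low counts, and 27 of 28 with probes summed. The batch block gave the same counts of 11 rising calls at C5 and 13 by trend, ended the call of KRT20 at C3 in mocetinostat and added one of KRT19_3690 at C4 in tacedinaline (adjusted p 0.0381 in edgeR), and changed no other call at C2 to C5 or by trend. Falling calls at C5 numbered 1 with DESeq2, 1 with no filter (KRT17 in trichostatin A) and 1 with probes summed, against 0 in the report. Rising calls from C4 to C5 numbered 1 with DESeq2 size factors and 1 with probes summed, against 2. The keratin features whose change differed between chemicals numbered 1 without the libraries that stood apart, against 2. In the main fit 30.3% of all features differed over 8 chemicals. Leaving out each replicate in turn, which leaves 2 libraries or fewer per group, gave 6 to 8 rising calls at C5, 0 falling calls at C5, 9 to 13 rising and 0 to 1 falling by trend, 13 to 21 at C2 to C4, 0 to 1 rising and 2 to 4 falling from C4 to C5, and 0 to 1 features whose change differed between chemicals. Of the 30 called results, 12, 12 and 5 lost the call without replicate 1, 2 and 3, of which 2 (KRT20 in scriptaid without replicate 2) no longer passed the filter. No result reversed its direction among the called ones. Depth limited KRT20, KRT23 and KRT7_3703, at 0 counts in 71, 101 and 77 of 118 libraries, and KRT7_10561, with a median of 4 counts.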
